A study of Chelonia mydas with 15 samples.

Results

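Green sea turtle (Chelonia mydas) embryos kept for 36 h in hypoxia were compared with embryos from freshly laid eggs, across all genes with enough counts. The comparison used the 10 of 15 RNA-seq libraries whose source labels mark them as 0 h or as 36 h hypoxic, 5 in each group, and 16639 of the 23730 named genes of the deposited count table were tested. Embryos of the freshly laid group were dissected within 1 h of laying and were never incubated. Those of the hypoxia group came from eggs held for 36 h at an oxygen tension below 8 mmHg, sealed in 2 nested plastic bags of nitrogen buried in sand, at 26 to 28 °C. The other 5 libraries, the normoxia group, were from eggs kept in sand for the same 36 h and temperatures at about 159 mmHg. They were part of the model behind every call, through its gene filter, scaling and spread. Their values are also given to place the hypoxic ones. Every library was made from embryo tissue frozen in liquid nitrogen, with no allele, strain or drug in the labels of any group. The labels give neither the female nor the clutch behind an egg, so the p-values measure the spread between these libraries. The hypoxic embryos were also 36 h older than the freshly laid ones and had been incubated for that time, so in this comparison alone time and oxygen cannot be told apart.

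Turtle embryos stop developing inside the oviduct, as gastrulae, where oxygen is scarce, and go on only after the egg is laid into air. In vertebrate cells the EGLN prolyl hydroxylases need oxygen to mark hypoxia-inducible factors for destruction, so in low oxygen the factors last and switch on genes for anaerobic energy, oxygen supply and survival. Lack of amino acids, misfolded protein in the endoplasmic reticulum and other stresses are read by kinases that phosphorylate the initiation factor eIF2, which slows translation while the transcription factor ATF4 is made (the integrated stress response), and by separate sensors of the endoplasmic reticulum (the unfolded protein response).

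The freshly laid libraries held 14496102 to 21771745 counts in genes and the hypoxic ones 17590559 to 20797573. Values are in CPM, a gene's count divided by its library's total after trimmed-mean scaling and expressed at the usual common depth, given as mean ± SD over 5 libraries or for replicates 1 to 5 in turn. A gene is said to have risen or fallen where edgeR's quasi-likelihood test gave a Benjamini-Hochberg adjusted p under 0.05 over all tested genes. On this rule 3474 genes (20.9%) rose and 3227 (19.4%) fell, 1878 and 1598 of them by at least 1 on the log2 scale. In 2035 genes every hypoxic library stood above every freshly laid one, and in 1962 every hypoxic library stood below. Large changes were mostly rises, since 265 genes rose and 68 fell by at least 3 on the log2 scale. The 10 genes with most counts took 8.56 to 11.4% of a hypoxic library against 5.54 to 6.88% of a freshly laid one. With scaling by total counts alone the median gene shifted by -0.31 on the log2 scale and the split became 2088 higher and 5259 lower. Small changes therefore depend on the scaling. List counts under it are given beside the main ones for many lists, but not for every list that shifts. Each list count below is to be read beside the 20.9% and 19.4% over all tested genes. Cytosolic tRNA synthetases called higher went from 15 to 11, for example, and yolk tissue genes from 10 to 7. Embryonic markers were present in both groups, among them EPCAM, an epithelial adhesion protein of early embryos, at 1375 ± 382 and 941 ± 131 CPM. Of the genes named below 352 were taken by a rule on rank and list membership and 65 were chosen after their values were seen. In whole embryos fewer cells of a kind and less RNA per cell cannot be told apart. The call of EPCAM was lost without freshly laid replicate 1 (adjusted p 0.0607).

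Known targets of hypoxia-inducible factors rose together. Of 38 measured targets of hypoxia-inducible factors 27 rose and 1 fell (25 higher and 4 lower with total counts), with a median log2 change of 1.78, where all tested genes had a median of 0.03. Of the 10 sensors and factors themselves 5 rose and 1 fell, a split that was 4 and 4 with total counts. EGLN3, the prolyl hydroxylase that is itself a target of the factors, stood at 82.3, 62.9, 105, 107 and 69.6 CPM in the freshly laid libraries and at 839, 714, 614, 762 and 699.9 CPM in the hypoxic ones. The groups were far apart and EGLN3 rose 8.50-fold (log2 change 3.09 ± 0.18 (SE), adjusted p = 9.89e-09). VEGFA, the growth factor for blood vessels, was at 8.17, 5.75, 12.9, 11.5 and 13.5 CPM and then at 71.8, 62.8, 54.01, 47.6 and 73.4 CPM. No freshly laid library reached the lowest hypoxic one, and VEGFA rose 5.96-fold (log2 change 2.58 ± 0.23 (SE), adjusted p = 3.55e-07).

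The subunits of the factors moved unequally. EPAS1, the second oxygen-regulated alpha subunit, rose from 103 ± 35.8 to 319 ± 278 CPM (log2 change 1.63 ± 0.42 (SE), adjusted p = 0.00547), while HIF1A, the first, was at 119 ± 43.7 and 98.6 ± 22.8 CPM and was not called (log2 change -0.27, adjusted p = 0.34). The hypoxic spread of EPAS1 came from replicates 3 and 4, at the upper end of 180.0, 128, 785, 365 and 134.7 CPM, and normoxic embryos held 623 ± 193 CPM, a difference that was not called (adjusted p = 0.0635). EGLN1, the main prolyl hydroxylase, rose from 33.0 to 67.0 CPM, and so did HIF3A, a subunit that can restrain the others (from 105 to 154 CPM), and CITED2, a feedback inhibitor that competes for their coactivator (from 53.4 to 140.3 CPM). VHL, the ubiquitin ligase subunit that removes hydroxylated factors, fell from 59.6 to 34.8 CPM. ARNT and ARNT2, the shared partners, and HIF1AN, the asparagine hydroxylase, were at 119, 24.6 and 53.3 CPM in freshly laid and 95.6, 19.8 and 62.4 CPM in hypoxic embryos and were not called. Without hypoxic replicate 3 the log2 change of EPAS1 was 0.97 in place of 1.63. ARNT was called without freshly laid replicate 3 or hypoxic replicate 5 (log2 change -0.42 to -0.37, adjusted p 0.0151 to 0.0433).

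Among the targets the largest rise was in STC2, a secreted glycoprotein hormone, which stood at 3.96, 1.44, 3.32, 3.22 and 4.87 CPM in freshly laid and 154, 133.3, 119.8, 112 and 172 CPM in hypoxic libraries. The lowest hypoxic library was far above the highest freshly laid one, and STC2 rose 40.9-fold (log2 change 5.36 ± 0.31 (SE), adjusted p = 9.29e-09). DDIT4, an inhibitor of the growth kinase mTOR, rose from 260.3 ± 108 to 2559 ± 334 CPM (log2 change 3.30 ± 0.25 (SE), adjusted p = 8.12e-08), against 48.4 CPM in normoxia. Secreted and matrix-modifying products followed: ADM, a vasodilator peptide, rose from 1.11 to 25.8 CPM, LOX, which crosslinks collagen, from 10.2 to 99.9 CPM, and P4HA1, which hydroxylates collagen prolines, from 171 to 907 CPM. CA9, a carbonic anhydrase of the cell surface, rose from 5.39 to 46.1 CPM. Not every textbook target rose. SLC2A1, the common glucose transporter, was at 568, 592, 809, 743 and 645 CPM in freshly laid and 267, 503, 534, 547 and 564 CPM in hypoxic libraries, a small step between groups that only just failed to overlap, with no call (log2 change -0.48, adjusted p = 0.06), while normoxic embryos held 159.2 ± 33.2 CPM. PDK1, the kinase that turns off pyruvate dehydrogenase, was at 11.5 ± 5.91 and 9.86 ± 6.45 CPM and was not called. HK2, a hexokinase, was the one target that fell, from 191 ± 43.1 to 66.7 ± 49.0 CPM (log2 change -1.52 ± 0.37 (SE), adjusted p = 0.00361).

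**Figure D1:**
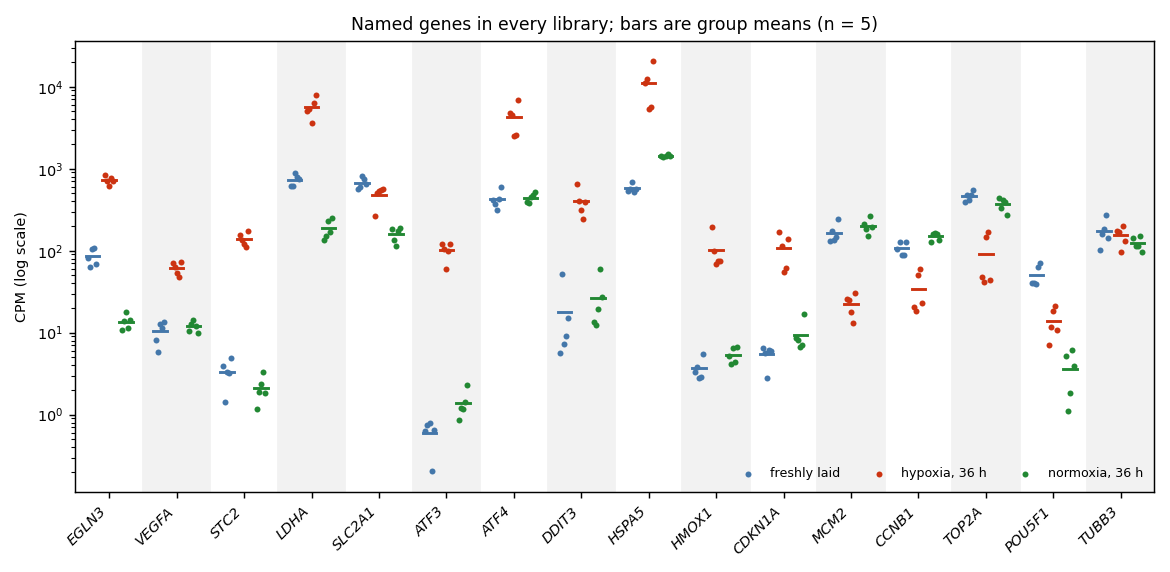
CPM of 16 named genes in each of the 15 libraries on a log axis, with freshly laid, hypoxic and normoxic embryos as separate colours and the mean of each group as a bar. In EGLN3, VEGFA, LDHA and the stress genes every hypoxic point lies above every freshly laid one, in MCM2, CCNB1 and TOP2A every one lies below, and TUBB3 overlaps.

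Glycolysis rose as a pathway, with named steps that did not. Of 16 enzymes measured 10 rose and 2 fell (median log2 change 0.91, and 9 higher and 4 lower with total counts). LDHA, which reduces pyruvate to lactate, was at 611, 620.0, 896, 799.9 and 740.0 CPM in freshly laid and 5016, 5324, 3643, 6365 and 7867 CPM in hypoxic libraries. All 5 hypoxic values were above all 5 others, and LDHA rose 7.69-fold (log2 change 2.94 ± 0.22 (SE), adjusted p = 6.21e-08). ENO2, the neuronal enolase, rose from 11.8 to 84.1 CPM, GPI from 662 to 1907 CPM, GAPDH from 2734 to 7251 CPM and ENO1, the common enolase, from 10858 ± 1703 to 21009 ± 5729 CPM. PKM, the last enzyme of the pathway, fell from 6050.1 ± 291 to 3982 ± 801 CPM (log2 change -0.60 ± 0.23 (SE), adjusted p = 0.0413), and PGK1 and LDHB were not called at 549 and 2616 CPM before and 521 and 2042 CPM after. Without freshly laid replicates 1, 2, 3, 4 or 5 or hypoxic replicates 1, 2 or 3 PKM missed the threshold (adjusted p 0.056 to 0.098).

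Related genes for the same step often moved apart in carbohydrate metabolism, pairs picked out after their values were seen. HK1 rose from 136 to 361 CPM (log2 change 1.41 ± 0.20 (SE), adjusted p = 3.78e-05) where HK2 fell. GYS1, glycogen synthase of muscle and most tissues, rose from 103 ± 22.5 to 309.6 ± 72.6 CPM (log2 change 1.59 ± 0.18 (SE), adjusted p = 4.96e-06), and GYS2, the liver form, fell from 34.2 ± 7.57 to 8.89 ± 4.13 CPM (log2 change -1.94 ± 0.39 (SE), adjusted p = 8.38e-04). HK1, GYS1 and GYS2 separated the groups fully and HK2 did not. SLC16A3, the monocarboxylate carrier of glycolytic cells, rose from 10.5 to 24.7 CPM, and SLC16A1, the widespread one, fell from 723 to 524 CPM. PDK2 rose from 83.2 to 156 CPM while PDK3 fell from 11.5 to 3.23 CPM. Of the targeting subunits that bring protein phosphatase to glycogen, PPP1R3D rose from 1.43 to 4.78 CPM, and PPP1R3B (from 186 to 92.1 CPM) and PPP1R3C (from 23.3 to 6.96 CPM) fell.

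The rest of sugar metabolism was mixed. Of 14 glycogen genes 3 rose and 4 fell (2 higher and 5 lower with total counts). These shares were 21.4% and 28.6%, against 20.9% and 19.4% of all tested genes. The phosphorylases that break glycogen down were not called, PYGL at 534 ± 141 and 533 ± 97.3 CPM and PYGM and PYGB with log2 changes of -0.07 and -0.03. Nor were GYG2, UGP2 and PGM1, at -0.35, -0.24 and 0.09 on that scale. GYG1, a primer of glycogen, rose from 70.3 to 103 CPM, and GBE1, the branching enzyme, fell from 45.5 to 24.6 CPM. Of 11 transporters and partners 4 rose and 1 fell (3 higher and 2 lower with total counts), among them SLC2A2, the liver-type glucose carrier (from 1.21 to 8.60 CPM), SLC2A4, the insulin-regulated one (from 31.6 to 50.3 CPM), and BSG, the chaperone of lactate carriers (from 1409 to 2571 CPM). The carriers SLC2A6, SLC2A8, SLC2A10, SLC2A12 and SLC16A7 were not called, with log2 changes of -0.33, 0.00, 0.01, -1.31 and 1.17. In the pentose phosphate pathway 3 of 7 genes rose and 2 fell (2 higher and 3 lower with total counts). TALDO1 fell from 275 to 203.2 CPM, and TKT, PGLS and RPIA rose to 724, 96.3 and 196 CPM from 397, 54.3 and 136 CPM. PGD and RPE were not called, at log2 changes of -0.13 and 0.26. The test of SLC2A4 missed the threshold without freshly laid replicates 2, 3 or 4 or hypoxic replicates 1 or 4 (adjusted p 0.0534 to 0.14). SLC16A7 was called without freshly laid replicate 3 (log2 change 2.02, adjusted p 0.00601).

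The mitochondrial genes measured showed no common direction. Of 26 genes of pyruvate oxidation and the citrate cycle 8 rose and 6 fell (5 higher and 13 lower with total counts). PC, pyruvate carboxylase, rose from 49.6 to 122 CPM and DLST, a subunit of oxoglutarate dehydrogenase, from 115 to 246 CPM, PDHB, a subunit of pyruvate dehydrogenase, fell from 129.7 to 79.2 CPM, and MDH1, the cytosolic malate dehydrogenase, was at 355 and 420.2 CPM without a call. Complex I of the respiratory chain had 10 of 37 subunits higher and 3 lower, a split that turned to 3 higher and 11 lower with total counts. NDUFV3 rose from 33.9 to 69.5 CPM and NDUFA10 from 172 to 256 CPM, and NDUFV2, a core subunit, fell from 208 to 112 CPM. ATP synthase had 5 of 16 subunits higher and 1 lower (2 and 4 with total counts). ATP5MC3, 1 of 3 genes for its membrane ring, fell from 227 ± 35.4 to 80.3 ± 17.2 CPM (log2 change -1.50 ± 0.18 (SE), adjusted p = 6.15e-06), while ATP5MC1 and ATP5MC2, which encode the same mature subunit, rose to 148 and 437 from 83.6 and 264 CPM. The other risers were ATP5F1B, the catalytic beta subunit (from 991 to 1534 CPM), ATP5F1D (from 84.9 to 142.04 CPM) and ATP5MG (from 102 to 148 CPM). The 10 that were not called had log2 changes from -0.29 in ATP5PO to 0.37 in ATP5ME, with ATP5F1A at 0.20, ATP5F1C at -0.17, ATP5F1E at 0.34, ATP5PB at 0.06, ATP5PD at 0.34, ATP5PF at -0.19, ATP5MF at 0.35 and ATP5IF1, the inhibitor of the enzyme, at 0.29. The mitochondrial ribosome had 18 of 76 proteins higher and 18 lower, a split that was 7 and 30 with total counts. Each share was 23.7%, near the 20.9% higher and 19.4% lower of all tested genes. Changes ran from MRPS18B (from 29.3 to 81.4 CPM) to MRPL18 (from 60.4 to 25.9 CPM), and MRPS16, with most counts, was not called (153 and 196 CPM). Of 21 genes of mitochondrial biogenesis and dynamics 6 rose and 2 fell (4 higher and 9 lower with total counts). PPARGC1A, a coactivator that drives mitochondrial biogenesis, rose from 0.150 to 1.16 CPM, BNIP3, a receptor that tags mitochondria for removal, from 61.8 to 205 CPM, and DNM1L, which divides mitochondria, fell from 68.1 to 35.0 CPM, while PHB2, a prohibitin, was at 406 and 498 CPM without a call. Of 24 entries listed for complexes II to IV only 3 matched a gene name, all subunits of succinate dehydrogenase, so complexes III and IV were not measured. SDHA and SDHC rose from 139 to 187 CPM and from 182 to 246 CPM, and SDHB was not called (172 and 202 CPM). The same 3 genes are counted in the citrate cycle list above. ATP5MG lost its call without freshly laid replicates 1 or 3 or hypoxic replicate 1 (adjusted p 0.0536 to 0.0575). ATP5PD was called without hypoxic replicate 2 (log2 change 0.42, adjusted p 0.0473). ATP5MF was called without freshly laid replicate 5 (log2 change 0.44, adjusted p 0.0418). PHB2 was called without freshly laid replicate 5 (log2 change 0.36, adjusted p 0.023). The call of SDHA was lost without freshly laid replicates 2, 4 or 5 or hypoxic replicates 3 or 5 (adjusted p 0.0546 to 0.0824).

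**Figure D2:**
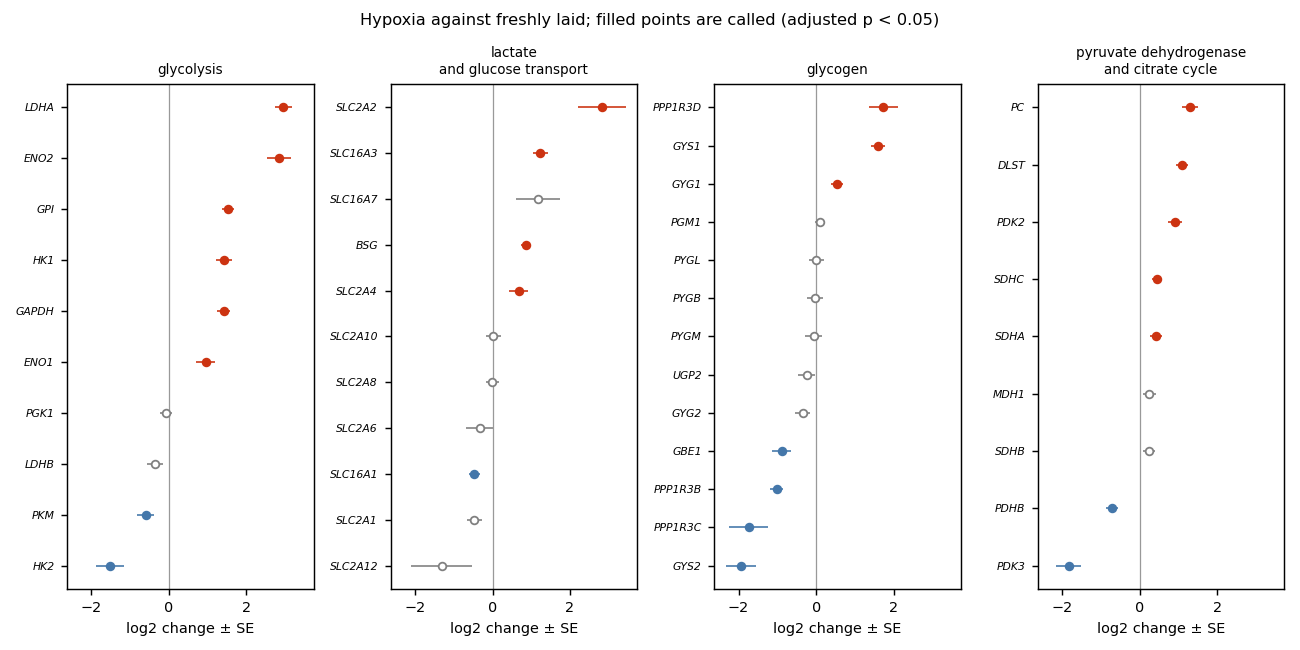
Log2 change, hypoxic against freshly laid embryos, with its standard error, for the members named in the text of the lists of glycolysis, glucose and lactate transport, glycogen metabolism and the pyruvate dehydrogenase and citrate cycle list. Filled points are genes called at adjusted p under 0.05. LDHA, ENO2 and SLC2A2 lie far to the right, with changes of 2.94, 2.83 and 2.82, and HK2, GYS2 and PPP1R3C far to the left, with -1.52, -1.94 and -1.74.

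The integrated stress response rose, with 12 of its 15 kinases and factors higher and 2 lower and a median log2 change of 3.07, the largest of the 71 lists measured. ATF3, a stress-induced transcription factor, was at 0.628, 0.748, 0.784, 0.204 and 0.643 CPM in freshly laid and 120.4, 106, 60.6, 97.8 and 119 CPM in hypoxic libraries. It was close to absent before and present in every hypoxic library, a 167-fold rise (log2 change 7.39 ± 0.34 (SE), adjusted p = 9.33e-10). ATF4, the central factor, was at 419.5, 376, 316, 430.2 and 594 CPM in freshly laid and 4753, 4535, 2535, 2543 and 6811 CPM in hypoxic libraries. Hypoxic replicates 3 and 4 were the lowest of their group and still above the highest freshly laid library, and ATF4 rose 9.91-fold (log2 change 3.31 ± 0.26 (SE), adjusted p = 1.03e-07). DDIT3 (CHOP), the factor tied to cell death under lasting stress, was at 5.65, 51.5, 7.30, 9.10 and 14.9 CPM and then 650.3, 405, 316, 241 and 394 CPM. Freshly laid replicate 2 was high for its group and below every hypoxic library, and DDIT3 rose 22.7-fold (log2 change 4.50 ± 0.61 (SE), adjusted p = 2.47e-05).

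Partners and feedback genes of ATF4 rose as well. CEBPB, which pairs with it, rose from 1.504 ± 1.003 to 53.6 ± 21.8 CPM, CEBPG from 22.9 to 88.5 CPM, ATF5 from 146 to 1221 CPM, NUPR1 from 7.73 to 101.02 CPM and TRIB3, a pseudokinase that restrains ATF4, from 12.8 to 127 CPM. PPP1R15A (GADD34), the stress-induced subunit that brings a phosphatase to eIF2, rose from 8.56 to 84.2 CPM, and its constitutive relative PPP1R15B was not called at 15.1 and 12.2 CPM. The 4 eIF2 kinases parted: EIF2AK1, the haem-regulated kinase, rose from 24.1 to 83.3 CPM, EIF2AK3 (PERK), the kinase of the endoplasmic reticulum, from 40.4 to 93.98 CPM, EIF2AK4 (GCN2), the amino acid sensor, from 105 to 147 CPM, and EIF2AK2 (PKR), the double-stranded RNA sensor, fell from 11.7 to 5.21 CPM. EIF2S1, the subunit of eIF2 they all phosphorylate, fell from 146 ± 26.3 to 79.9 ± 10.5 CPM (log2 change -0.87 ± 0.15 (SE), adjusted p = 2.11e-04). Normoxic embryos held 445 ± 57.8 CPM of ATF4 and 26.6 ± 19.5 CPM of DDIT3, and hypoxic embryos were above them (adjusted p = 4.21e-08 and 4.06e-05).

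Amino acid supply genes that ATF4 is known to drive followed it. Of 29 measured 22 rose and 3 fell (median log2 change 1.68). PSPH, the last enzyme of serine synthesis, rose from 1.65 ± 1.28 to 32.9 ± 13.7 CPM (log2 change 4.32 ± 0.49 (SE), adjusted p = 4.66e-06), MTHFD2, a mitochondrial folate enzyme, from 39.3 to 516 CPM, and ASNS, asparagine synthetase, from 117 ± 14.8 to 678 ± 269 CPM (log2 change 2.53 ± 0.23 (SE), adjusted p = 4.64e-07). CHAC1, which degrades glutathione, was at 2.01, 4.83, 4.53, 3.63 and 5.37 CPM in freshly laid and 79.5, 70.3, 73.8, 91.6 and 70.2 CPM in hypoxic libraries, 2 tight and separate groups (log2 change 4.24 ± 0.24 (SE), adjusted p = 9.29e-09). SLC3A2, the heavy chain of amino acid exchangers, rose from 141.5 to 899 CPM, and FGF21, a stress hormone, from 2.16 to 29.1 CPM. The 3 members that fell were SLC38A1, a glutamine carrier (from 30.1 to 7.39 CPM), XPOT, which exports tRNA from the nucleus (from 126 to 73.0 CPM), and EIF4EBP1, a repressor of cap-dependent translation (from 54.7 to 33.0 CPM). Enzymes that load tRNA split by compartment. Of 20 cytosolic synthetases 15 rose and 0 fell, among them CARS1 (from 25.8 to 119 CPM) and EPRS1, the joint enzyme for glutamate and proline (from 279.5 to 823 CPM), and of 16 mitochondrial ones 2 rose and 5 fell, with YARS2 going from 71.1 to 114 CPM, WARS2 from 29.3 to 52.0 CPM and MARS2 from 17.4 to 8.35 CPM. KARS1, whose product serves both compartments, went from 433 to 618 CPM. Without freshly laid replicates 2, 3, 4 or 5 or hypoxic replicates 1, 2, 4 or 5 EIF4EBP1 missed the threshold (adjusted p 0.0531 to 0.121).

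The unfolded protein response of the endoplasmic reticulum rose nearly throughout. Of 36 members 34 rose and 1 fell (median log2 change 1.71, and 31 higher with total counts). HSPA5 (BiP), the main chaperone of the compartment, was at 538, 571, 690.4, 524 and 563 CPM in freshly laid and 11080.5, 12371, 5405, 5586 and 20459 CPM in hypoxic libraries. The hypoxic libraries differed among themselves, with replicates 3 and 4 lowest and replicate 5 highest, and all were above every freshly laid one (19.03-fold, log2 change 4.25 ± 0.31 (SE), adjusted p = 4.17e-08). HERPUD1, a part of the degradation machinery of the endoplasmic reticulum, was at 25.3, 23.1, 36.4, 29.4 and 28.9 CPM and then at 814, 888, 365, 308 and 1262 CPM, again lowest in hypoxic replicates 3 and 4 (log2 change 4.67 ± 0.35 (SE), adjusted p = 5.62e-08). HSP90B1, another chaperone, rose from 421 to 7097 CPM, HYOU1 from 167 to 2870.3 CPM, DNAJB9, a cochaperone of HSPA5, from 11.8 to 129.6 CPM, and PDIA4, which forms disulphide bonds, from 169 to 1652 CPM. XBP1, the factor spliced by the sensor IRE1, rose from 49.8 to 365 CPM. ERN1, the gene for IRE1 itself, was the one member that fell, from 10.7 to 6.16 CPM (log2 change -0.79 ± 0.28 (SE), adjusted p = 0.0329), a call lost where the fit held only the 10 libraries compared. Normoxic embryos held 1437 ± 55.3 CPM of HSPA5. The test of ERN1 missed the threshold without freshly laid replicate 2 or hypoxic replicates 3 or 5 (adjusted p 0.0572 to 0.0995).

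**Figure D3:**
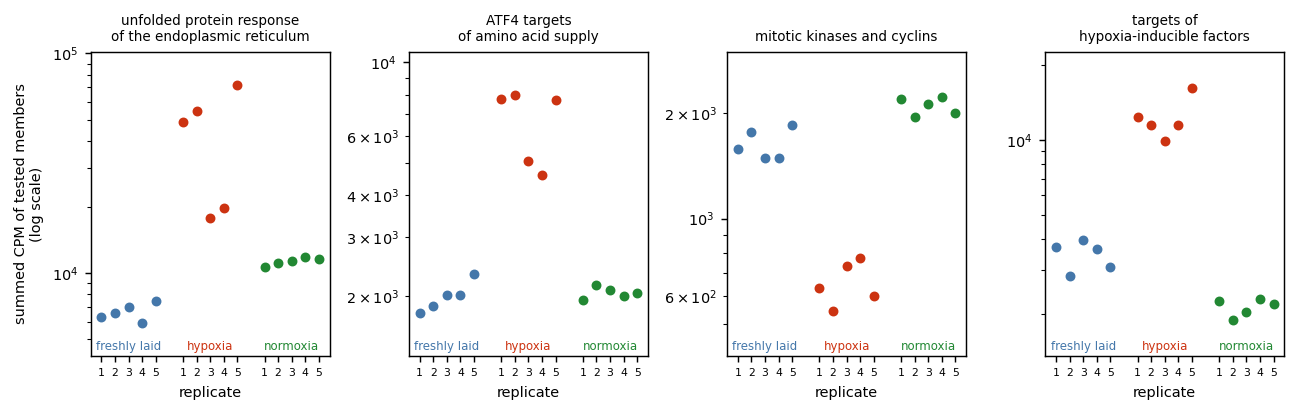
Summed CPM of all tested members of the unfolded protein response, ATF4 target, mitotic and hypoxia-inducible factor target lists in each library on log axes. Unfolded protein response sums in hypoxic replicates 3 and 4 lie between those of hypoxic replicates 1, 2 and 5 and those of the other groups, and in the same 2 replicates the mitotic sums are the highest of their group.

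Chaperones outside the endoplasmic reticulum did not share this rise. Of 21 measured 5 rose and 9 fell (median log2 change -0.35). HSPH1, a nucleotide exchange factor for cytosolic HSP70, was at 85.0, 64.9, 72.5, 57.5 and 78.7 CPM in freshly laid and 9.84, 13.9, 23.7, 16.4 and 6.49 CPM in hypoxic libraries, with no overlap (log2 change -2.35 ± 0.27 (SE), adjusted p = 5.13e-06). HSP90AA1, the inducible cytosolic HSP90, fell from 209 ± 43.6 to 73.5 ± 58.7 CPM, DNAJA1 from 221 to 105 CPM and HSPA8 from 1221 to 838 CPM, while HSP90AB1, the constitutive HSP90, rose from 3591 to 5933 CPM and HSPA2 from 19.3 to 138 CPM. HSF1, the factor that drives this group in heat shock, was at 107 and 131 CPM and was not called. Of 8 chaperonin subunits 0 rose and 1, CCT5, fell (from 326 to 172 CPM), with 5 lower under total counts. The others, CCT2, CCT3, CCT4, CCT6A, CCT7, CCT8 and TCP1, had log2 changes of 0.05, -0.29, 0.17, -0.12, 0.13, -0.24 and -0.36. Of 37 proteasome genes 6 rose and 11 fell (3 higher and 20 lower with total counts), from PSMD9 (from 164 to 292 CPM) to PSMA5 (from 88.6 to 31.3 CPM), with PSMA7 not called (352 and 391 CPM). The list of ubiquitin genes, cargo receptors and related genes had 7 of 10 higher and 0 lower (5 higher and 2 lower with total counts). Among the risers were SQSTM1, the receptor p62 (from 80.6 to 345 CPM), UBB (from 195 to 474 CPM), the autophagy receptor NBR1 (from 60.5 to 85.7 CPM) and UFD1 (from 54.9 to 89.6 CPM). FAU, which encodes a ubiquitin-like protein joined to a ribosomal protein, also rose (from 279 to 429.7 CPM). UBA1, which activates ubiquitin, NPLOC4 and OPTN were not called, at log2 changes of -0.45, -0.12 and 0.20. Ubiquitin genes share sequence, so reads may be split among them. HSF1 was called without freshly laid replicate 5 (log2 change 0.43, adjusted p 0.0292). CCT3 was called without freshly laid replicate 1 (log2 change -0.38, adjusted p 0.0234). TCP1 was called without freshly laid replicate 4 or hypoxic replicate 5 (log2 change -0.47 to -0.43, adjusted p 0.0262 to 0.0454). NBR1 lost its call without freshly laid replicates 2, 3, 4 or 5 or hypoxic replicates 3, 4 or 5 (adjusted p 0.0531 to 0.106). UBA1 was called without freshly laid replicate 1 or hypoxic replicate 3 (log2 change -0.55 to -0.53, adjusted p 0.0304 to 0.0437).

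Defences against oxidants moved by enzyme. Of 30 measured 11 rose and 7 fell (6 and 9 with total counts). HMOX1, which breaks down haem, was at 3.33, 3.85, 2.78, 2.86 and 5.51 CPM in freshly laid and 193.998, 99.1, 69.5, 75.2 and 74.6 CPM in hypoxic libraries. Replicate 1 was the highest hypoxic library and all 5 were far above the freshly laid ones (27.8-fold, log2 change 4.80 ± 0.32 (SE), adjusted p = 2.49e-08). NFE2L1 rose from 105 to 333 CPM, NFE2L2 from 8.66 to 21.1 CPM and KEAP1, which restrains the latter, from 65.8 to 157 CPM, whereas TXN, thioredoxin, fell from 258 to 136 CPM, and TXNRD1, its reductase, from 17.4 to 8.52 CPM. GPX1 was at 445 and 456 CPM and was not called. Of 12 genes of iron handling 2 rose and 3 fell (1 higher and 7 lower with total counts). SLC39A14, a carrier of iron and zinc, fell from 633 ± 205 to 199 ± 132 CPM (log2 change -1.67 ± 0.38 (SE), adjusted p = 0.00219), STEAP3, a reductase of endosomal iron, from 11.8 to 3.62 CPM, and SLC25A37, the mitochondrial iron carrier, from 13.02 to 6.82 CPM. FTH1, the ferritin heavy chain, and TFRC, the transferrin receptor, were at 1068 and 115 CPM and then at 1174 and 72.3 CPM and were not called. SLC25A38, which brings glycine into mitochondria for haem, rose from 43.9 to 69.4 CPM. The exporter SLC40A1, the importer SLC11A2 and the iron sensors ACO1, IREB2 and FBXL5 were not called, at log2 changes of 0.10, -0.32, -0.02, -0.06 and -0.41. TFRC was called without freshly laid replicate 3 or hypoxic replicate 3 (log2 change -0.90 to -0.79, adjusted p 0.0114 to 0.0297). The call of SLC25A38 was lost without freshly laid replicates 2, 3 or 4 or hypoxic replicates 1, 2 or 5 (adjusted p 0.0593 to 0.129). FBXL5 was called without freshly laid replicates 2 or 5 (log2 change -0.50 to -0.48, adjusted p 0.0327 to 0.0459).

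Several genes that brake growth signals rose. Of 39 genes of the mTOR pathway and autophagy 17 rose and 3 fell (10 higher and 5 lower with total counts). TFEB, a factor for lysosome and autophagy genes, rose from 2.996 to 23.9 CPM, SESN2, a leucine sensor that restrains mTOR, from 46.5 to 334 CPM, ULK1, the kinase that starts autophagy, from 24.9 to 131 CPM, and WIPI1 from 73.2 to 346 CPM. MTOR itself fell from 103 ± 12.5 to 56.8 ± 9.86 CPM (log2 change -0.86 ± 0.13 (SE), adjusted p = 7.05e-05), RHEB, its activator, from 55.7 to 38.2 CPM, and DDIT4L, the relative of DDIT4, from 0.6996 to 0.168 CPM. Of 15 energy and growth kinases and their repressors 6 rose and 3 fell (2 and 3 with total counts). EEF2K, which blocks the elongation factor EEF2, rose from 12.3 to 20.8 CPM, EIF4E, the cap-binding protein, fell from 139 to 80.5 CPM, and PRKAA1, a catalytic subunit of the energy sensor AMPK, was at 58.1 and 70.8 CPM and was not called. Its beta subunits PRKAB1 and PRKAB2 rose from 45.9 to 78.4 CPM and from 45.8 to 69.9 CPM, STK11, the kinase above AMPK, from 31.7 to 46.9 CPM, and MLXIPL, a sugar-responsive factor, from 37.6 to 55.0 CPM, and RPS6KB1, a kinase below mTOR, fell from 54.6 to 41.1 CPM. PRKAA2, PRKAG1, PRKAG2, CREBRF and EIF4EBP2 were not called, at log2 changes of -0.04, 0.39, 0.40, 0.52 and 0.44. Of 21 immediate early genes 13 rose and 3 fell. ZFP36, which destabilises short-lived transcripts, rose from 12.7 to 98.4 CPM, FOSL2 from 23.3 to 150.2 CPM and JUNB from 11.9 to 74.5 CPM, while EGR1 was at 2.72 and 1.97 CPM and was not called. MYC fell from 22.4 ± 8.10 to 11.5 ± 3.91 CPM (log2 change -0.97 ± 0.25 (SE), adjusted p = 0.00575) and MYCN rose from 30.6 ± 2.46 to 76.9 ± 12.7 CPM (log2 change 1.33 ± 0.13 (SE), adjusted p = 1.07e-06). PRKAA1 was called without freshly laid replicate 1 (log2 change 0.37, adjusted p 0.036). Without freshly laid replicates 1, 2 or 3 or hypoxic replicates 1, 2 or 5 MLXIPL missed the threshold (adjusted p 0.0726 to 0.128). The test of RPS6KB1 missed the threshold without freshly laid replicates 1 or 2 or hypoxic replicate 4 (adjusted p 0.0633 to 0.0763). PRKAG1 was called without freshly laid replicate 5 (log2 change 0.63, adjusted p 0.0217). PRKAG2 was called without freshly laid replicate 1 (log2 change 0.56, adjusted p 0.0267). CREBRF was called without freshly laid replicate 1 or hypoxic replicates 2 or 5 (log2 change 0.62 to 0.65, adjusted p 0.0391 to 0.0479). EIF4EBP2 was called without freshly laid replicate 3 (log2 change 0.63, adjusted p 0.0463).

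DNA replication genes fell. Of 36 genes that work at the fork 29 fell and 1 rose, with a median log2 change of -0.95. MCM2, a subunit of the replicative helicase, was at 129.8, 172, 134, 147 and 241.9 CPM in freshly laid and 25.7, 25.3, 17.98, 13.02 and 30.2 CPM in hypoxic libraries. Every hypoxic value was under every freshly laid one, and MCM2 fell 7.35-fold (log2 change -2.88 ± 0.24 (SE), adjusted p = 1.91e-07). The helicase did not fall evenly: MCM6 went from 153 to 74.9 CPM, MCM5 from 72.7 to 43.8 CPM, MCM3 from 169 to 119.6 CPM, and MCM7 was at 132 and 99.98 CPM without a call. CDC6, which loads the helicase, fell from 22.7 to 5.77 CPM and CDT1 from 126 to 62.5 CPM, and of 14 licensing genes 8 fell and 1, ORC2, rose (from 105 to 141 CPM), against 11 lower and 0 higher with total counts. Among the others ORC5 fell from 28.4 to 20.7 CPM and GMNN, which holds licensing off, from 113 to 74.4 CPM, and ORC1, ORC3, ORC4 and ORC6 were not called, at log2 changes of -0.59, -0.14, -0.27 and -0.19. CDC45, the helicase cofactor, fell from 22.8 to 5.42 CPM, WDHD1, which links the helicase to a polymerase, from 83.9 to 31.6 CPM, and PCNA, the sliding clamp, from 327 ± 42.9 to 133.3 ± 22.5 CPM (log2 change -1.30 ± 0.15 (SE), adjusted p = 4.69e-06). The 1 riser at the fork was TIMELESS, a fork protection factor (from 42.5 to 76.4 CPM). MCM3 lost its call without hypoxic replicate 1 (adjusted p 0.0563). MCM7 was called without hypoxic replicate 1 (log2 change -0.61, adjusted p 0.0315). The call of ORC2 was lost without freshly laid replicates 1, 2, 4 or 5 or hypoxic replicates 1, 2 or 5 (adjusted p 0.0611 to 0.137). Without freshly laid replicates 1, 2, 3 or 5 or hypoxic replicates 1, 2 or 3 ORC5 missed the threshold (adjusted p 0.0523 to 0.103). ORC1 was called without freshly laid replicate 3 or hypoxic replicate 5 (log2 change -0.75 to -0.74, adjusted p 0.0152 to 0.0292). ORC4 was called without hypoxic replicate 4 (log2 change -0.54, adjusted p 0.0148).

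Supply and packaging of new DNA fell with it. Of 13 genes for deoxynucleotides 7 fell and 0 rose. RRM2, the regulated subunit of ribonucleotide reductase, was at 111, 106, 122, 69.6 and 121 CPM in freshly laid and 9.84, 24.2, 7.13, 14.3 and 16.3 CPM in hypoxic libraries, which do not overlap (log2 change -2.88 ± 0.29 (SE), adjusted p = 1.14e-06). TYMS, thymidylate synthase, fell from 20.4 to 3.33 CPM, RRM1 from 341 to 151 CPM, and RRM2B, the stress-induced subunit, was at 31.9 and 49.8 CPM and was not called. DCK and TK1, salvage kinases, fell from 27.7 to 10.6 CPM and from 187 to 102 CPM, MTHFD1, a folate enzyme, from 160.2 to 72.0 CPM, and SAMHD1, which degrades deoxynucleotides, from 75.2 to 48.5 CPM. DUT, SHMT1, DTYMK and CMPK1 were not called, at log2 changes of -0.39, -0.26, 0.37 and 0.03. Synthesis of the bases had 4 of 18 genes lower and 1 higher (1 higher and 7 lower with total counts), CTPS1 going from 285 to 119.5 CPM and IMPDH2 from 902 to 1653 CPM. Chromatin assembly had 7 of 14 lower and 0 higher, with UHRF1, which carries DNA methylation through replication, going from 70.2 to 18.1 CPM, RBBP4, a histone chaperone, from 384 to 138 CPM, and NAP1L1, another, at 1023 and 1182 CPM without a call. Of 29 genes of homologous recombination and the Fanconi pathway 19 fell and 0 rose, among them BLM, a helicase (from 62.6 to 11.97 CPM), and EXO1, a nuclease (from 129 to 91.3 CPM). RRM2B was called without hypoxic replicate 3 (log2 change 0.79, adjusted p 0.0234). The test of SAMHD1 missed the threshold without freshly laid replicates 1 or 2 or hypoxic replicates 1 or 3 (adjusted p 0.0577 to 0.0733). DUT was called without freshly laid replicate 1 (log2 change -0.52, adjusted p 0.0482). DTYMK was called without hypoxic replicate 3 (log2 change 0.46, adjusted p 0.0275). EXO1 lost its call without freshly laid replicates 1 or 2 or hypoxic replicates 1 or 3 (adjusted p 0.0595 to 0.0742).

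Mitotic genes fell almost throughout. Lower were 22 of 25 kinases and cyclins, 23 of 25 spindle and cytokinesis genes, 24 of 31 kinetochore genes, 14 of 20 of the anaphase-promoting complex and its checkpoint and 16 of 25 of condensin and cohesin, and higher were 0, 0, 0, 1 and 2. CCNB1, the mitotic cyclin, was at 105, 127, 88.7, 89.1 and 129 CPM in freshly laid and 20.7, 18.4, 51.0, 59.8 and 22.8 CPM in hypoxic libraries, with no overlap (log2 change -1.64 ± 0.28 (SE), adjusted p = 2.12e-04). TOP2A, which untangles chromosomes, was at 390.5, 476, 421, 478 and 554 CPM and then at 48.2, 41.8, 148, 171 and 43.4 CPM. Hypoxic replicates 3 and 4 kept higher levels than the other 3 and were still under every freshly laid library (log2 change -2.36 ± 0.35 (SE), adjusted p = 6.35e-05). CDK1 fell from 73.4 to 22.6 CPM, CCNA2 from 46.01 to 10.7 CPM, BUB1, a checkpoint kinase, from 145 to 46.6 CPM, CHEK1 from 97.6 to 36.1 CPM, KIF11, a spindle motor, from 390.0 to 142.4 CPM, KIF23 from 72.7 to 16.5 CPM, CDCA8 from 261 to 49.3 CPM, MAD2L1 from 103.6 to 23.8 CPM, SKA3 from 13.4 to 2.30 CPM and ECT2, which starts cytokinesis, from 51.9 to 10.04 CPM. MAU2 of the cohesin loader rose from 241 to 457 CPM and ANAPC2 of the anaphase-promoting complex from 94.6 to 144 CPM, while the condensin subunits SMC4 and NCAPH fell from 74.8 to 17.6 CPM and from 67.6 to 20.6 CPM. Normoxic embryos held 149.6 ± 16.3 CPM of CCNB1 and 200.4 ± 41.6 CPM of MCM2, and the hypoxic embryos were under both (adjusted p = 1.25e-05 and 2.49e-08).

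Entry into the cycle and its brakes moved mostly in opposite directions. Of the list of 23 G1 cyclins, kinases and E2F factors 15 fell and 2 rose (0 higher and 17 lower with total counts): CCNE2 went from 13.2 to 1.98 CPM, CDK2 from 68.1 to 20.5 CPM, CDK4 from 61.8 to 99.9 CPM and CCND2 from 39.2 to 54.3 CPM. RBL1, which the list also holds though it restrains entry, fell from 129 to 58.9 CPM. Of 28 growth arrest genes 22 rose and 2 fell (median log2 change 1.00, and 13 higher and 4 lower with total counts). CDKN1A (p21), an inhibitor of cyclin-dependent kinases, was at 6.60, 5.69, 2.78, 6.23 and 6.01 CPM in freshly laid and 169.9, 114, 55.7, 62.2 and 139 CPM in hypoxic libraries. Replicates 3 and 4 were again the lowest hypoxic libraries, and CDKN1A rose 19.8-fold (log2 change 4.31 ± 0.37 (SE), adjusted p = 2.56e-07). CDKN1B (p27) rose from 3.65 to 12.9 CPM, CDKN1C (p57) from 17.4 to 32.8 CPM, PNRC1 from 70.8 to 222 CPM and BTG1 from 147 to 236 CPM, and CDKN2D fell from 15.98 to 4.92 CPM. Normoxic embryos held 33.3 ± 3.48 CPM of CDKN1C, a difference from hypoxia that was not called (adjusted p = 0.918). Against normoxia 14 of the 28 growth arrest genes were higher and 4 lower in hypoxia. MDM2, a ubiquitin ligase, and its partner MDM4 were at 55.7 and 216 CPM and then at 66.4 and 261 CPM and were not called. Of 24 death and survival genes 5 rose and 4 fell (4 higher and 9 lower with total counts). These shares, 20.8% and 16.7%, were near the 20.9% and 19.4% of all tested genes. Among the risers were the survival genes MCL1 (from 96.7 to 286 CPM) and BCL2L1 (from 74.7 to 208 CPM) and the arrest gene ZMAT3 (from 5.17 to 19.2 CPM). TIGAR, which limits glycolysis, was among those that fell (from 24.6 to 7.41 CPM). The log2 change of ZMAT3 went from 1.89 to 1.21 without hypoxic replicate 3.

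**Figure D4:**
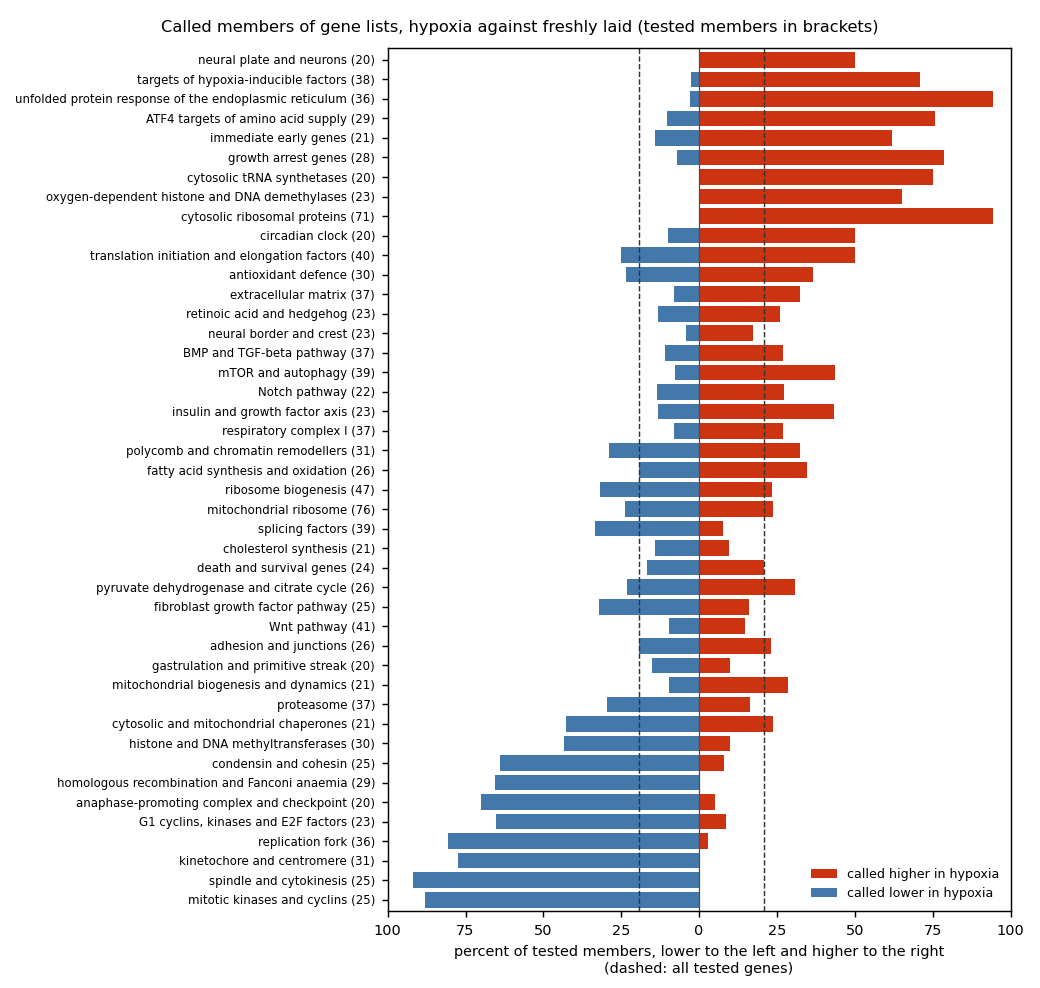
Percent of tested members called higher (right) and lower (left) in hypoxic than in freshly laid embryos for the 44 gene lists with at least 20 tested members, with dashed lines at 20.9% and 19.4%, the shares over all tested genes. The unfolded protein response and the cytosolic ribosomal proteins reach farthest to the right and the spindle and mitotic lists farthest to the left.

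Cytosolic ribosomal proteins rose by a small and even amount. Of 71 proteins 67 rose and 0 fell (median log2 change 0.66, and 39 higher with total counts). RPLP0 was at 2807, 2623, 3707, 3117 and 4144 CPM in freshly laid and 5176, 4243, 5442, 5348 and 5662 CPM in hypoxic libraries, each hypoxic value above all others (log2 change 0.66 ± 0.15 (SE), adjusted p = 0.00195). RPS20, with the largest rise of the group, went from 908 to 1725 CPM, RPS18 from 1149 to 2122 CPM, and EEF1A1, the elongation factor, from 12103 ± 2243 to 24116 ± 3612 CPM. Translation factors otherwise split, 20 of 40 higher and 10 lower (12 and 12 with total counts). EIF5, which guards start codon choice, rose from 458 to 1848 CPM, PABPC1, which binds poly(A) tails, from 2016 to 5099 CPM, and EEF2 from 5293 to 10481 CPM, and EIF4A1, the cap helicase, fell from 633 to 369 CPM. Ribosome biogenesis had 11 of 47 genes higher and 15 lower (6 higher and 20 lower with total counts), BYSL going from 42.4 to 124 CPM, NCL, nucleolin, at 1524 and 1854 CPM without a call, FBL, the methyltransferase of small nucleolar particles, going from 174 to 87.7 CPM, and NOLC1, which assembles them, from 124 to 38.8 CPM (log2 change -1.68 ± 0.16 (SE), adjusted p = 7.91e-07). Splicing factors had 3 of 39 higher and 13 lower (0 higher and 19 lower with total counts), with SRSF1 going from 381 to 178 CPM, SRSF3 from 649.6 to 313 CPM, RBM39 from 134.6 to 215 CPM and HNRNPA1 from 1971 to 2846 CPM. NCL was called without freshly laid replicate 5 or hypoxic replicate 3 (log2 change 0.30 to 0.32, adjusted p 0.0465 to 0.049).

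Enzymes that remove methyl groups with oxygen as a substrate rose, and several that add them fell. Of 23 oxygen-dependent demethylases 15 rose and 0 fell (11 and 5 with total counts), and of 30 methyltransferases 3 rose and 13 fell. TET3, which oxidises methylated cytosine, was at 20.8, 26.4, 26.8, 21.3 and 17.6 CPM in freshly laid and 175, 215, 141, 137 and 173 CPM in hypoxic libraries, with no overlap (log2 change 2.90 ± 0.20 (SE), adjusted p = 3.09e-08). TET2 rose from 1.54 to 15.3 CPM, KDM3A, a histone demethylase and known target of hypoxia-inducible factors, from 177 to 736 CPM, and KDM4A was at 240.5 and 224 CPM and was not called. DNMT3B, which sets new DNA methylation, was at 1631, 1617, 1319, 1395 and 1289.9 CPM in freshly laid and 239.6, 783, 410.3, 428 and 642 CPM in hypoxic libraries, again without overlap (log2 change -1.53 ± 0.26 (SE), adjusted p = 1.79e-04), and at 368 ± 115 CPM in normoxia (hypoxia against normoxia, adjusted p = 0.156). NSD2, a writer on histone H3, fell from 224 to 47.5 CPM, KMT2C rose from 63.9 to 144 CPM and PRMT1, which methylates arginines, from 1165 to 1989.6 CPM. All 3 core subunits of polycomb complex 2 fell, EZH2 from 269.8 to 113 CPM, EED from 198 to 77.0 CPM and SUZ12 from 87.3 to 38.5 CPM, 3 genes picked out after their values were seen. Of the list of 31 polycomb genes and remodellers 10 rose and 9 fell (5 and 10 with total counts). Its median log2 change was 0.18, with a range from -1.97 to 5.33, so the fallers named here do not stand for the list. SMARCA5, the ATPase of ISWI remodellers, fell from 179 to 45.8 CPM and SMARCC1, a subunit of BAF remodellers, from 431 to 301 CPM.

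Genes of the pluripotent epiblast and of gastrulation mostly missed the threshold under trimmed-mean scaling. Of 14 epiblast genes 3 fell and 0 rose (0 higher and 7 lower with total counts). POU5F1, the pluripotency factor OCT4, was at 40.4, 40.7, 39.7, 64.0 and 70.5 CPM in freshly laid and 7.06, 11.8, 18.6, 21.1 and 10.8 CPM in hypoxic libraries (log2 change -1.88 ± 0.39 (SE), adjusted p = 0.00106), and normoxic embryos held 3.63 ± 2.12 CPM (adjusted p = 6.82e-04). PRDM14, another factor of that state, fell from 96.2 ± 21.7 to 14.1 ± 8.04 CPM (log2 change -2.77 ± 0.43 (SE), adjusted p = 9.29e-05), and SOX2 and SALL4 were at 4.98 and 354 CPM and then at 4.37 and 296 CPM and were not called. Of 20 gastrulation genes 2 rose and 3 fell (2 higher and 5 lower with total counts). TBXT (brachyury), a factor of the primitive streak and nascent mesoderm, was at 84.5, 14.95, 21.5, 40.0 and 22.4 CPM and then at 5.04, 4.87, 12.4, 15.3 and 1.86 CPM. The groups overlapped little and TBXT fell (log2 change -2.21 ± 0.50 (SE), adjusted p = 0.00192), whereas normoxic embryos held 60.2 ± 10.4 CPM (adjusted p = 1.45e-04). MIXL1, a streak factor, fell from 81.6 to 9.28 CPM and GDF1, a nodal partner, from 212 to 57.0 CPM, while CDX1 and CDX2, factors of the posterior body, rose from 2.96 to 8.999 CPM and from 7.34 to 22.3 CPM and CHRD, a BMP antagonist, was at 242.1 and 143 CPM without a call. EOMES, at 86.4 ± 50.7 and 136 ± 38.2 CPM, and NODAL, at 8.63 ± 5.75 and 1.65 ± 2.41 CPM, were not called (adjusted p = 0.275 and 0.0545). The call of CDX1 was lost without hypoxic replicate 3 (adjusted p 0.065). CHRD was called without freshly laid replicate 1 (log2 change -1.09, adjusted p 0.0172). NODAL was called without hypoxic replicate 3 (log2 change -3.63, adjusted p 0.00779).

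Markers of later tissues that changed nearly all rose, but in some lists no more often than genes at large. Higher were 10 of 20 neural plate and neuronal genes, 4 of 23 of the neural border and crest, 5 of 16 of the presomitic mesoderm and somites, 2 of 11 HOX genes, 7 of 13 endoderm genes, 6 of 18 of heart and lateral mesoderm and 10 of 16 of surface ectoderm. Lower were 0, 1, 0, 0, 0, 0 and 1. Over all tested genes 20.9% were higher and 19.4% lower. The border and crest list, with 17.4% higher, and the HOX list, with 18.2%, were under the first share. Only 11 of 39 HOX genes were tested. Members above 10 CPM in hypoxic embryos numbered 3, 8, 3, 0, 8, 8 and 12 in the same order of lists, so many counts rest on genes at low levels. In freshly laid embryos they numbered 2, 8, 2, 0, 7, 6 and 10. A gene near 0 there could hardly be called lower, so few falls were possible in some lists. NKX2-2 and ZIC1, with 0 counts there, passed the expression filter only through the incubated groups. With total counts 6 surface ectoderm genes were higher and 1 presomitic gene lower. Against normoxia the lists, in the same order, had 3, 4, 1, 0, 5, 4 and 6 members higher in hypoxia. Lower than in normoxia were 6, 9, 7, 3, 2, 3 and 3. Over all tested genes 25.7% were higher and 23.2% lower than in normoxia. NEUROG1, a neurogenic factor, rose from 0.360 to 4.50 CPM and RAX, of the eye field, from 0.671 to 8.54 CPM, with 1.16 and 0.2998 CPM in normoxia. NKX2-2, of the ventral neural tube, had 0 counts in all freshly laid libraries together and 18 in the hypoxic ones, at least 6.62-fold more against a floor of 3 counts. PCDH8 and MEOX2, of forming somites, rose from 5.27 to 45.6 CPM and from 0.0424 to 0.446 CPM and LFNG was at 84.6 and 68.9 CPM without a call, but MSGN1, the factor of presomitic mesoderm, had 1 count over all hypoxic libraries and 0 over the freshly laid ones against 19.5 ± 11.1 CPM in normoxia. HOXA3 and HOXB3, of the hindbrain and neck, rose from 0.309 to 2.11 CPM and from 0.0519 to 0.861 CPM, with 3.31 and 2.37 CPM in normoxia. In the endoderm list FOXA3 rose from 0.180 to 3.75 CPM, PDX1 from 0.320 to 2.97 CPM, FOXA1 from 1.78 to 6.91 CPM, PRDM1 from 22.2 to 55.0 CPM and GATA6 from 59.7 to 134.99 CPM, and CXCR4, HHEX, HNF4A, GATA4, SOX7 and FOXA2 were not called, at log2 changes of 0.94, 0.82, 1.26, 0.94, 0.04 and 0.93. GATA5 and PRRX1 of the heart and lateral mesoderm rose from 31.4 to 158 CPM and from 0.754 to 6.89 CPM, OVOL1 and GATA3 of surface ectoderm from 0.0909 to 1.52 CPM and from 6.25 to 31.9 CPM, and the epithelial keratins KRT18 and KRT8 from 547 to 2147 CPM and from 551 to 1472 CPM. SNAI2, of migrating crest and mesoderm, fell from 5.32 to 1.24 CPM and TWIST1 rose from 0.0469 to 0.362 CPM, TFAP2C was at 149 and 161 CPM without a call, and ZIC1, of the neural border, had 0 counts in freshly laid and 10 in hypoxic libraries. TUBB3, a neuronal tubulin, was at 173 and 154 CPM and was not called. Without freshly laid replicates 1 or 2 or hypoxic replicate 3 GATA6 missed the threshold (adjusted p 0.0515 to 0.0804). CXCR4 was called without freshly laid replicate 3 or hypoxic replicates 1 or 5 (log2 change 1.06 to 1.31, adjusted p 0.00914 to 0.0439). HHEX was called without freshly laid replicate 3 (log2 change 1.28, adjusted p 0.0176). HNF4A was called without hypoxic replicate 2 (log2 change 1.49, adjusted p 0.0458). GATA4 was called without hypoxic replicates 2 or 5 (log2 change 1.12 to 1.17, adjusted p 0.0227 to 0.0406). Leaving out freshly laid replicate 4 moved the log2 change of OVOL1 from 3.91 to 6.26. Without freshly laid replicate 5 the log2 change of TWIST1 was 4.14 in place of 2.65.

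Signalling lists held changes at single ligands and receptors, in some no more often than in genes at large. By comparison, 20.9% of all tested genes rose and 19.4% fell. Wnt genes rose in 14.6% of members and fell in 9.76%, both under those shares. For BMP and TGF-beta, Notch, and retinoic acid and hedgehog genes 27.03%, 27.3% and 26.1% rose and 10.8%, 13.6% and 13.04% fell. Fibroblast growth factor genes rose in 16% and fell in 32%. Insulin-axis and clock genes rose in 43.5% and 50% and fell in 13.04% and 10%. Of 41 Wnt genes 6 rose and 4 fell (4 higher and 8 lower with total counts), WNT2B going from 0.241 to 2.29 CPM, the receptor FZD7 from 114 to 29.7 CPM, and CTNNB1, the beta-catenin gene, at 1251 and 1185 CPM without a call. In the fibroblast growth factor pathway 4 of 25 rose and 8 fell (2 higher and 10 lower with total counts). The receptor FGFR1 fell from 295 to 165 CPM, the target ETV4 from 73.0 to 40.2 CPM and the ligand FGF17 from 6.78 to 1.13 CPM, and FGF13, an intracellular relative of the ligands, rose from 1.94 to 10.5 CPM. Of 37 BMP and TGF-beta genes 10 rose and 4 fell (3 and 8 with total counts), with the ligand BMP2 rising from 6.61 to 21.6 CPM, the receptor TGFBR2 from 7.66 to 17.5 CPM and the target ID3 from 265 to 385 CPM, and the activin subunit INHBA falling from 0.998 to 0.146 CPM. Of 22 Notch genes 6 rose and 3 fell (5 and 6 with total counts). DLL4, a ligand best known from vessels, was at 0, 1.38, 3.80, 1.99 and 1.56 CPM in freshly laid and 23.2, 32.7, 15.2, 22.4 and 33.7 CPM in hypoxic libraries, with no overlap (log2 change 3.86 ± 0.59 (SE), adjusted p = 7.05e-05), JAG2 rose from 12.9 to 51.3 CPM, and HES4, a target, fell from 77.6 to 25.6 CPM and MIB1, which activates the ligands, from 129.8 to 75.8 CPM. Of 23 insulin-axis genes 10 rose and 3 fell (7 higher and 6 lower with total counts): IGFBP1, a binding protein that sequesters growth factors, went from 8.97 to 66.9 CPM, IGFBP3, another, from 9.56 to 65.2 CPM, and IGFBP2 from 1294 to 806 CPM. Retinoic acid and hedgehog genes had 6 of 23 higher and 3 lower (3 and 4 with total counts), with SHH, a hedgehog ligand, going from 0.133 to 1.16 CPM, SUFU, a pathway repressor, going from 161 to 85.1 CPM and RARG, a receptor, at 130.03 and 135.3 CPM without a call. Of 20 clock genes 10 rose and 2 fell, BHLHE40, a clock repressor and known target of hypoxia-inducible factors, going from 14.8 to 189 CPM, ARNTL2 from 156 to 86.2 CPM and CLOCK from 3.66 to 1.74 CPM. The test of FGF17 missed the threshold without freshly laid replicates 3, 4 or 5 or hypoxic replicates 1, 2, 4 or 5 (adjusted p 0.0571 to 0.0809). The log2 change of BMP2 went from 1.71 to 1.12 without hypoxic replicate 3. INHBA lost its call without freshly laid replicate 1 or hypoxic replicate 2 (adjusted p 0.0596 to 0.0956). The call of ARNTL2 was lost without freshly laid replicates 1, 2 or 4 or hypoxic replicates 2, 3 or 5 (adjusted p 0.0528 to 0.168). Without freshly laid replicates 1, 2 or 4 or hypoxic replicates 1, 2, 4 or 5 CLOCK missed the threshold (adjusted p 0.0569 to 0.166).

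Matrix, adhesion and lipid genes were mixed. Of 37 matrix genes 12 rose and 3 fell, or 6 and 5 with total counts (COL11A1 going from 0.461 to 2.97 CPM, TIMP3 from 10.7 to 38.6 CPM, FN1, fibronectin, from 608 to 1248 CPM and FBN1 from 12.2 to 5.23 CPM), and of 26 adhesion genes 6 rose and 5 fell (5 higher and 10 lower with total counts). The adhesion shares, 23.1% and 19.2%, were near the 20.9% and 19.4% of all tested genes. CDH2 (N-cadherin) was at 699, 542, 920.4, 659 and 433 CPM in freshly laid and 382, 98.2, 344, 397 and 108 CPM in hypoxic libraries (log2 change -1.29 ± 0.35 (SE), adjusted p = 0.00728). Its groups did not overlap, and TJP3, a tight junction scaffold, rose from 43.6 to 84.2 CPM and ITGB3 from 93.3 to 248 CPM. Of 21 genes of cholesterol synthesis 2 rose and 3 fell (1 higher and 5 lower with total counts), SREBF2, its regulator, going from 229 to 389.8 CPM, MVD from 67.5 to 141.7 CPM and STARD4 from 3.82 to 0.599 CPM. Of 26 fatty acid genes 9 rose and 5 fell (5 and 7 with total counts). PPARA, a regulator of fat oxidation, rose from 7.88 to 46.7 CPM, PNPLA2, which releases stored fat, from 4.03 to 20.98 CPM, and HADHA, of mitochondrial fat oxidation, from 238 to 420.5 CPM, while the synthesis enzymes ACACA and FASN fell from 72.0 to 29.2 CPM and from 116 to 78.2 CPM. The test of FASN missed the threshold without freshly laid replicates 2, 3 or 4 or hypoxic replicates 1, 4 or 5 (adjusted p 0.0532 to 0.0868).

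Markers of other tissues that a dissected embryo could carry were measured beside these groups. Of 16 genes of yolk tissue 10 rose and 0 fell, and their summed CPM was 67.0 to 109 in freshly laid, 143 to 995 in hypoxic and 154 to 1547 in normoxic libraries. APOA1, an apolipoprotein, was at 8.42, 20.9, 22.7, 10.8 and 6.29 CPM and then at 236, 69.8, 446, 130.3 and 43.8 CPM, highest in hypoxic replicate 3 and lowest in replicate 5 (log2 change 3.74 ± 0.66 (SE), adjusted p = 2.81e-04). RBP4 rose from 3.92 to 33.7 CPM, and APOB was at 1.29 ± 1.58 and 7.31 ± 11.4 CPM and was not called. Blood and endothelial markers had 5 of 19 higher and 2 lower (GATA1 going from 0.583 to 4.89 CPM, ERG from 0.653 to 4.84 CPM and KDR from 70.5 to 24.5 CPM, with GATA2 at 176 and 193 CPM and no call), with sums of 187 to 451, 312 to 646 and 396 to 693 CPM. Leukocyte markers had 3 of 11 higher and 0 lower, with sums of 52.7 to 78.2, 78.4 to 151 and 35.7 to 60.4 CPM, and CD68 rose from 0.266 to 5.72 CPM and LCK from 30.7 to 70.2 CPM. Germline markers had 4 of 16 higher and 1 lower, or 4 and 3 with total counts (ZAR1 going from 0.555 to 13.3 CPM and PIWIL2 from 65.7 to 20.2 CPM), with sums of 166 to 219, 194.3 to 250.1 and 162 to 258 CPM. Blood, leukocyte and germline markers rose in 26.3%, 27.3% and 25% of members and fell in 10.5%, 0% and 6.25%. Over all tested genes 20.9% rose and 19.4% fell, so the shares of these lists that rose were near that of genes at large. Members above 10 CPM in freshly laid embryos numbered 3 for yolk tissue, 5 for blood, 2 for leukocytes and 7 for germline. For the members near 0 there a fall could hardly be called. The part of yolk and the other tissues in the endoderm, heart and epithelial counts was not tested. Leaving out hypoxic replicate 3 moved the log2 change of RBP4 from 3.11 to 2.02. Without hypoxic replicate 2 the log2 change of CD68 was 2.82 in place of 4.34.

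The 12 largest rises were of mixed kinds, with neural genes such as ATOH1 and HES3 and stress genes such as ATF3 among them. ATOH1, a factor of hair cells and cerebellar precursors, had 0 counts over the freshly laid libraries and stood at 2.66, 4.70, 1.70, 2.23 and 1.79 CPM in the hypoxic ones, at least 81.7-fold higher against a floor of 3 counts over the group, and at 0.126 ± 0.149 CPM in normoxia. HES3, a neural repressor of the Notch type, had 2 counts over the freshly laid libraries and 516 over the hypoxic ones, 285-fold (95% counting interval 78.5 to 2359), and stood at 1.95 ± 0.863 CPM in normoxia. Both separated the groups fully, as the naming rule required of every gene in this and the next paragraph. C10H15orf48, the turtle gene whose human counterpart encodes a mitochondrial protein that can replace NDUFA4, was at 0, 0.173, 0.845, 0.818 and 0.459 CPM and then at 35.3, 36.02, 33.8, 49.7 and 33.2 CPM (log2 change 6.32 ± 0.63 (SE), adjusted p = 1.23e-06), against 0.263 ± 0.244 CPM in normoxia, and NDUFA4 itself was at 168 and 129 CPM and was not called. MC5R, a melanocortin receptor, was at 0, 0.115, 0.121, 0.0511 and 0.0459 CPM and then at 19.5, 0.711, 1.14, 0.620 and 0.331 CPM, with hypoxic replicate 1 far above the rest. ABCB5, an efflux transporter, rose from 0.0731 ± 0.0872 to 3.70 ± 1.36 CPM, INA, a neuronal filament, from 0.0667 ± 0.125 to 3.26 ± 1.92 CPM, SKOR1, a neural corepressor, from 0.0194 ± 0.0266 to 1.24 ± 0.733 CPM and SLC17A9, the vesicular nucleotide carrier, from 0.0632 ± 0.111 to 3.12 ± 2.86 CPM. SLC51B, a subunit of a bile acid and steroid carrier, had 1 count in freshly laid libraries against 223 in hypoxic ones, 246-fold (95% counting interval 43.7 to 9768), and stood at 8.27 ± 5.16 CPM in normoxia. ATF3 and STC2, described above, were also among the 12 largest rises. NDUFA4 was called without hypoxic replicate 4 (log2 change -0.58, adjusted p 0.0163). The log2 change of MC5R went from 5.94 to 3.29 without hypoxic replicate 1.

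The 12 largest falls had no shared role among those known. SOST, a secreted Wnt and BMP antagonist, was at 0.942, 0.345, 5.97, 1.79 and 4.50 CPM in freshly laid and 0.0579, 0.109, 0.126, 0 and 0 CPM in hypoxic libraries (log2 change -5.36 ± 0.95 (SE), adjusted p = 2.86e-04). MYBL1, a factor of germ cells and cycling cells, was at 14.9, 13.9, 12.4, 10.02 and 13.96 CPM and then at 1.16, 1.20, 0.757, 1.36 and 1.06 CPM (log2 change -3.55 ± 0.27 (SE), adjusted p = 7.83e-08). HSPA4L, a relative of HSPH1, was at 67.0, 64.9, 46.04, 31.5 and 48.8 CPM and then at 3.65, 2.30, 9.21, 7.63 and 2.32 CPM (log2 change -3.36 ± 0.35 (SE), adjusted p = 2.27e-06). MYBL1 and HSPA4L were high in all freshly laid libraries and low in all hypoxic ones, while SOST was uneven among the freshly laid libraries. SEPTIN3, a septin of neurons, fell from 15.9 to 0.545 CPM, MMD2 from 3.24 to 0.190 CPM, CALB1, a calcium buffer, from 24.7 to 1.78 CPM, LRRC27 from 9.85 to 0.774 CPM, LRRN2 from 6.09 to 0.516 CPM, SLC34A2, a phosphate carrier, from 55.0 to 4.85 CPM, KCNU1, a sperm potassium channel, from 2.21 to 0.190 CPM, TNFAIP6, which binds hyaluronan, from 9.35 to 0.875 CPM, and B3GALT5, a glycosyltransferase, from 10.5 to 1.02 CPM. Normoxic embryos held 1.20 ± 0.940 CPM of SOST, 9.90 ± 2.74 CPM of MYBL1 and 97.3 ± 17.4 CPM of HSPA4L.

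Changes also followed features of the genes that no list used, given as shares with 95% Wilson intervals and without a test. Members of the lists were kept in, so these shares are not independent of the counts above. Among them were the 71 cytosolic ribosomal proteins, which summed to 61698 to 86852 CPM in normoxia. The shares were not computed with total counts. The intervals treat genes as independent, though many vary together. They do not cover the spread between libraries or the choice of scaling. Longer transcripts fell more often: 13.7% (12.4 to 14.99) of the shortest sixth of genes by summed exon length fell and 25.03% (23.5 to 26.7) of the longest, while 22.1% (20.6 to 23.7) and 17.2% (15.8 to 18.6) rose. By their level in the 5 normoxic libraries, which are not in this contrast and were chosen for it after seeing the data, 72.6% (62.3 to 81.01) of the 84 genes with a mean of at least 1000 CPM rose and 10.7% (5.74 to 19.1) fell, against 25.2% (23.3 to 27.1) and 28.4% (26.5 to 30.4) of those from 100 CPM up to that level. Of 73 small nucleolar RNA genes, short transcripts that guide ribosomal RNA modification, 39.7% (29.3 to 51.2) fell and 1.37% (0.242 to 7.36) rose, with a median log2 change of -1.55. Their summed level was 105, 116, 34.7, 101.1 and 67.4 CPM in freshly laid, 50.1, 28.7, 32.6, 40.9 and 27.6 CPM in hypoxic and 168, 134, 152, 158 and 151 CPM in normoxic libraries. Freshly laid replicate 3 overlapped the hypoxic libraries, and the normoxic libraries lay above both groups. These RNAs are shorter than usual library fragments and most had few counts, none above a mean of 4.38 CPM.

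**Figure D5:**
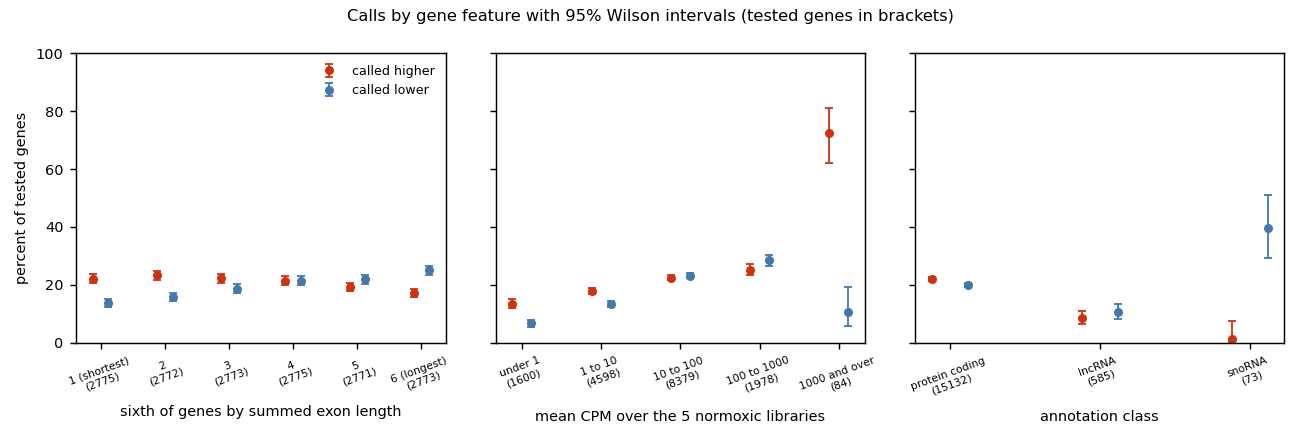
Percent of tested genes called higher and lower in hypoxic than in freshly laid embryos, with 95% Wilson intervals, by sixth of summed exon length, by mean CPM over the 5 normoxic libraries and by annotation class. The intervals treat genes as independent and do not cover the spread between libraries. The lower share climbs with length from 13.7 to 25.03%, the higher share climbs with CPM to 72.6%, and small nucleolar RNAs have the largest lower share, 39.7%.

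The 5 hypoxic libraries did not respond alike. Summed CPM of the unfolded protein response list was 48609, 54805, 17835, 19832 and 71802 in replicates 1 to 5, against 5930.5 to 7467 in freshly laid and 10591 to 11782 in normoxic libraries. Targets of ATF4 summed to 7784, 7978, 5072, 4608 and 7692 CPM, again lowest in replicates 3 and 4. The same 2 libraries held the highest sums of the mitotic kinases and cyclins, which were 636, 545, 731, 772 and 602 CPM against 1484 to 1844 in freshly laid libraries. Targets of hypoxia-inducible factors, at 12416, 11466, 9878, 11485 and 16209 CPM, were lowest in replicate 3, with replicate 4 within the range of the other 3. Among the 3474 genes that rose, replicates 3 and 4 were the lowest hypoxic library for 955 and 862 genes, but replicate 3 was also the highest for 792, behind replicate 5 with 924. Among the 3227 that fell replicate 4 was the highest for 953.

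Set against normoxic embryos of the same age, 4268 genes (25.7%) were higher and 3855 (23.2%) lower in hypoxia, a comparison that shares the hypoxic libraries with the one above. Among the lists described, 27 of 36 unfolded protein response genes and 30 of 38 targets of hypoxia-inducible factors were higher, and 23 of 25 mitotic kinases and cyclins and 30 of 36 fork genes lower, than in normoxia. Not every list kept its split. Neural plate and neuronal genes had 3 of 20 higher and 6 lower than in normoxia, and growth arrest genes 14 of 28 higher and 4 lower. Some genes placed hypoxic embryos between the other groups or beyond both. HK2 was at 32.7 ± 10.02 CPM and PKM at 1574 ± 624 CPM in normoxia, below the hypoxic level (adjusted p = 0.0286 and 1.28e-04), and FOXH1, which carries nodal signals, was at 136 ± 53.1 CPM in freshly laid, 113 ± 39.4 CPM in hypoxic and 11.02 ± 5.37 CPM in normoxic embryos (hypoxia against normoxia, adjusted p = 1.17e-06). HSPH1 went the other way, with 162 ± 38.4 CPM in normoxia against 14.1 in hypoxia (adjusted p = 4.54e-08), and so did RRM2, with 258 ± 66.6 against 14.4 CPM (adjusted p = 1.61e-08).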

How the data were processed

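The authors deposited 1 table of whole-number read counts per gene for all libraries, with genes down and libraries across. Per the file header the counts were made with featureCounts 1.6.2 with strand setting 2 and a minimum mapping quality of 10, and the submitters' processing notes also name STAR and limma, with versions not given in the sources used here. Per the labels RNA was isolated from embryos with a column kit and libraries followed Illumina's standard protocols; whether a library holds 1 embryo or several is not stated there. The alignments counted are named as duplicate-marked in the file header. The table has 18 count columns, of which 3 carry the name of no sample given and are not used here, and 1 entry without a gene name, which was left out and held 0.0553% to 0.334% of the counts of a library. Depth was 14496102 to 26805841 counts over the 15 libraries.

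Genes were kept by edgeR's expression filter and scaled by trimmed means of M values, and 1 quasi-likelihood model (edgeR 4.0.16, R 4.3.3) was fitted to all 15 libraries so that the 3 groups share a spread. The contrast was hypoxia minus freshly laid, with Benjamini-Hochberg adjustment over all 16639 genes and a standard error taken as the size of the log2 change over the square root of F. Residual degrees of freedom were 12. DESeq2 1.42.0, limma-voom 3.58.1, other scalings and filters, an index number covariate and fits without 1 library were alternatives. The index number is the number after the letter S in a library's column name, whose meaning is not given in the sources used here. Counts were also simulated with 200 of 16451 genes changed, equally up and down. The changed genes were drawn from those with a mean above 2 CPM, so the rates below do not describe genes at lower levels. There the fit recovered 92% and 50% of falls of 2 and 1 on the log2 scale and 60% and 92% of rises of 1 and 2. Of its calls 5.77% were unchanged genes. In the data 40.3% of genes were called and the split moved with the scaling. The simulated rates therefore need not hold for this comparison. Counting intervals and floors cover counting error only.

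The gene lists, and the genes and features described, were chosen with earlier results of these data known. Named were the 12 largest rises and 12 largest falls among called genes that have a symbol, do not overlap between groups and average 20 counts or more in whichever group is higher. For each list described, the named genes were the largest called rise and fall, the smallest adjusted p and the highest mean CPM, with every member of lists of up to 16 entries described singly and a set of stress, cycle and lineage genes chosen by name; a further 65 of 417 were chosen after their values were seen. Some genes taken by the rule are not reported here. Replicate numbers follow the order of the accessions and only name libraries; whether eggs of different groups share a clutch is not given in the sources used here. Genes were matched to annotation classes by symbol in a RefSeq table of a later version of the assembly, for 15814 tested genes.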

Additional observations from a re-analysis of the deposited data

Results flagged for a closer look

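A library was taken to stand apart where its gap to the nearest of the other 4 libraries of its group, over the range of the group, passed the 95% critical value of Dixon's test for 5 values. This was looked for in the CPM of every named gene and in the summed CPM of some of the lists, separately in freshly laid and hypoxic embryos. Measures of the whole library, such as total counts and the scaling factor, were looked at in the same way. The rule was met in 68 of 876 groups of 5, or 7.76%. The usual rate of about 1 in 20 holds for independent, normally spread values. CPM near 0 and genes that vary together are not of that kind, so 7.76% cannot be read as an excess. Freshly laid replicate 1 stood apart in ARNTL2 (276 CPM), DDIT4L (1.32 CPM), INHBA (2.701 CPM), MDM2 (89.1 CPM), PPP1R15B (18.1 CPM) and WARS2 (31.4 CPM). It also did so in ZMAT3 (6.28 CPM). Freshly laid replicate 2 stood apart in DDIT3 (51.5 CPM), ERN1 (15.01 CPM), GATA4 (13.5 CPM), INA (0.288 CPM), MMD2 (6.79 CPM) and SLC16A3 (6.33 CPM). Freshly laid replicate 3 stood apart in APOB (4.04 CPM), ARNT (99.3 CPM), CDKN1A (2.78 CPM), CITED2 (72.8 CPM), CTNNB1 (1592 CPM) and EGR1 (7.06 CPM). It also did so in FGFR1 (169.9 CPM), FOXA3 (0.603 CPM), HSPA5 (690.4 CPM), IGFBP3 (15.7 CPM), MCL1 (133 CPM) and NAP1L1 (1207 CPM). Its further values were NFE2L2 (12.6 CPM), PPP1R3C (40.9 CPM), SLC16A7 (4.65 CPM), SLC51B (0.0603 CPM), TNFAIP6 (22.1 CPM) and UGP2 (341 CPM). Freshly laid replicate 4 stood apart in ATF3 (0.204 CPM), DTYMK (47.7 CPM), ENO2 (21.1 CPM), GATA1 (1.48 CPM), OVOL1 (0.409 CPM) and PGM1 (81.00 CPM). It also did so in SLC17A9 (0.256 CPM). Freshly laid replicate 5 stood apart in ATP5F1B (1409.5 CPM), ATP5F1D (122 CPM), ATP5MG (148 CPM), HES3 (0.0918 CPM), HSF1 (153 CPM) and TWIST1 (0.184 CPM). Hypoxic replicate 1 stood apart in HMOX1 (194 CPM), MC5R (19.5 CPM) and SLC2A1 (267 CPM). Hypoxic replicate 2 stood apart in BLM (17 CPM), CD68 (20.7 CPM) and SLC38A1 (13.8 CPM). Hypoxic replicate 3 stood apart in FOXA3 (6.81 CPM), GATA1 (13.3 CPM), HNF4A (58.6 CPM), HSP90AA1 (176 CPM), MSGN1 (0.0631 CPM) and RBP4 (105 CPM). It also did so in STARD4 (1.77 CPM), STK11 (63.9 CPM) and ZMAT3 (48.3 CPM). Hypoxic replicate 4 stood apart in C10H15orf48 (49.7 CPM), JAG2 (76.5 CPM), ORC4 (46.1 CPM), PYGL (365 CPM), SKA3 (5.77 CPM) and the kinetochore list (summed CPM 996). Hypoxic replicate 5 stood apart in CCT2 (425 CPM), EEF2 (13144 CPM) and EIF4EBP2 (49.9 CPM).

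Freshly laid replicate 3 stood apart 18 times and hypoxic replicate 3 9 times, more often than the other libraries. In hypoxic replicate 3 FOXA3, GATA1, HNF4A and RBP4, which belong to the endoderm, blood and yolk tissue lists, were at the highest level of the hypoxic libraries. The summed CPM of the yolk tissue list was 494, 184, 995, 308 and 143 in hypoxic replicates 1 to 5. No cause was tested for any of these values.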

How the results depend on the processing

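The overall counts of 3474 higher and 3227 lower genes were 3441 and 3250 with DESeq2's size factors in place of trimmed means, 3500 and 3165 without the expression filter, 3398 and 3196 at a mean CPM of at least 1, 2905 and 2671 in a fit of the 10 libraries alone, 3488 and 3182 with the index number as covariate, 3748 and 3543 with DESeq2 and 3349 and 3195 with limma-voom. Without 1 library they ranged from 3009 to 3406 and from 2831 to 3179. With total counts alone they were 2088 and 5259, the share of calls that were higher went from 51.8% to 28.4%, and the median log2 change went from 0.03 to -0.29, a shift of -0.31. At an adjusted p under 0.01 there were 2333 higher and 2125 lower genes. Among libraries with an index number below 12, an alternative chosen after seeing the data, 2541 were higher and 2268 lower.

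Targets of hypoxia-inducible factors called lower numbered 1, but 3 with DESeq2 and with limma-voom, 2 with the covariate, 4 with total counts and 1 to 3 without 1 library, the most without hypoxic replicate 3. Glycolytic genes called lower went from 2 to 1 at adjusted p under 0.01 and in the low index libraries, to 4 with total counts and to 1 or 2 without 1 library. The 1 unfolded protein response gene called lower became 0 at adjusted p under 0.01, in the low index libraries, in the fit of 10 libraries and without freshly laid replicate 2 or hypoxic replicate 3 or 5. Growth arrest genes called higher went from 22 to 13 with total counts. Those called lower went from 2 to 1 at adjusted p under 0.01 and in the low index libraries, to 4 with total counts and to between 2 and 4 without 1 library, the most without hypoxic replicate 4. With total counts the ribosomal proteins called higher went from 67 to 39 and the demethylases called lower from 0 to 5. Neural plate genes called lower went from 0 to 1 with the covariate, with total counts and without hypoxic replicate 3. Yolk tissue genes called higher went from 10 to 6 at adjusted p under 0.01 and in the low index libraries. Among genes of at least 10 CPM 30.9% of the shortest sixth rose and 16.7% fell, and 28.3% of the longest fell. The causes of these shifts were not tested.

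Of 417 named genes, 309 kept their verdict in every fit run and 363 in every fit without 1 library, and 24 of 318 called genes lost the call in at least 1 of the latter. No paired or blocked analysis was run. The labels give no replicate number, female or clutch shared between groups, and a shared clutch was not tested. The numbers in the sample titles, whose meaning is not given in the sources used here, were not used to form blocks. A planned search of promoter sequences was not run, since no promoter table was used here. In the simulation 50% of falls of 1 on the log2 scale were found, at a far smaller share of changed genes than was called here. Its changed genes were all above a minimum mean CPM. A gene without a call may still differ.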
